A study of Mus musculus with 3 samples.

Results

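In some cells sorted as nephron progenitors of the fetal mouse kidney, messenger RNA of both Wnt4 and Cited1 was counted. Wnt4 is the signal made at commitment to a nephron, and Cited1 is a marker of the uncommitted state. Such cells were chosen among cells that had 1000 or more detected genes and no more than 10% of mitochondrial UMIs (unique molecular identifiers, each standing for 1 captured RNA molecule). They held at least 1 Wnt4 UMI and at least 1 Cited1 UMI, and fewer than 2 UMIs in all of Lhx1, Osr2, Emx2 and Cldn6, genes of the early nephron. The rule found 210 such cells among 7898 kept cells. They are called double-positive cells below, a name for their counts. Free RNA and cell pairs in a droplet were not separated from expression of both genes in a single cell. The same limits defined 203 Wnt4-only cells, with Wnt4 and no Cited1 UMI, and 4651 Cited1-only cells, with Cited1 and no Wnt4 UMI.

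The study profiled single cells of Six2GFP+ mouse embryos at E14.5, whose nephron progenitors make green fluorescent protein under the control of Six2. Kidneys of several litters were combined into 3 tubes, and a sort kept fluorescent cells and removed dead cells, debris and doublets by propidium iodide and size. The tubes were loaded side by side on 1 chip for droplet sequencing, and all 3 samples form 1 group with no treatment and no other genotype. The libraries are numbered 1 to 3 by the barcode suffix in the deposited matrix. The sources used here do not pair these suffixes with the sample labels. Since litters were pooled, no value below belongs to a single embryo. Differences between the classes are differences between cells of the same tubes.

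Nephron progenitors sit as a cap around the tips of the ureteric bud. Six2 and Cited1 mark the self-renewing cells, and Wnt9b from the bud together with BMP and FGF signals moves cells toward commitment, when Cited1 is lost and Wnt4 starts. Wnt4 then drives the aggregation of these cells and their change from mesenchyme to epithelium. The comparisons below set the other genes of the double-positive cells against those of each single-positive class of the same library.

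Library 1 held 97 double-positive cells among 3024 kept cells, library 2 held 55 among 2760, and library 3 held 58 among 2114. Their share was 2.65% ± 0.613 of kept cells (SD, n = 3). With each cell thinned to 8000 UMIs, so that depth was equal, the share was 1.12% ± 0.229 (SD, n = 3), and 219, 188 and 42 shallower cells of libraries 1, 2 and 3 were left out. Most double-positive cells met the rule with a single Wnt4 UMI: 157 of 210 had 1, 24 had 2 and 29 had 3 or more, with a highest count of 11. Cited1 was deeper, with 75 cells at 1 UMI, 31 at 2 and 104 at 3 or more, and a highest count of 23. In 44 cells the membership rested on 1 UMI of each gene. The early nephron genes summed to 0 in 197 cells and to 1 in 13 cells just inside the limit, and 5 further cells with both genes stood outside it, with summed counts of 2, 2, 3, 3 and 12. These counts chose the cells and are given as a description.

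Cited1 was found in a smaller share of cells with Wnt4 than of cells without it. The share with Cited1 was 47.8%, 54.5% and 53.2% of Wnt4-positive cells in libraries 1, 2 and 3, and 62.2%, 61.5% and 65.5% of Wnt4-zero cells, all under the limit on early nephron genes. At 8000 UMIs per cell the pooled shares were 33.5% and 51.6%. In library 1 the share was 53.8% of 130 cells with 1 Wnt4 UMI and 29.4% of 34 cells with 2 (exact 95% intervals 44.9 to 62.6 and 15.1 to 47.5, for counting error only). It was 42.9% of 21 cells with 3 to 4 UMIs and 44.4% of 18 cells with 5 or more. Library 2 had 59.3% of 86 cells, 37.5% of 8, 16.7% of 6 and 0 of 1 cell in the same 4 steps, and library 3 had 56.2% of 64, 57.9% of 19, 44.4% of 18 and 37.5% of 8. The libraries thus differed in where the share was lower, and library 3 showed no drop from 1 to 2 Wnt4 UMIs. The level of Cited1 was 148, 190 and 184 CPM (UMIs of a gene per 1000000 UMIs of the summed cells) in Wnt4-zero cells of libraries 1, 2 and 3, and 101, 186 and 137 CPM in cells with 1 Wnt4 UMI. Both genes chose the cells, so these values are a description.

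**Figure D1:**
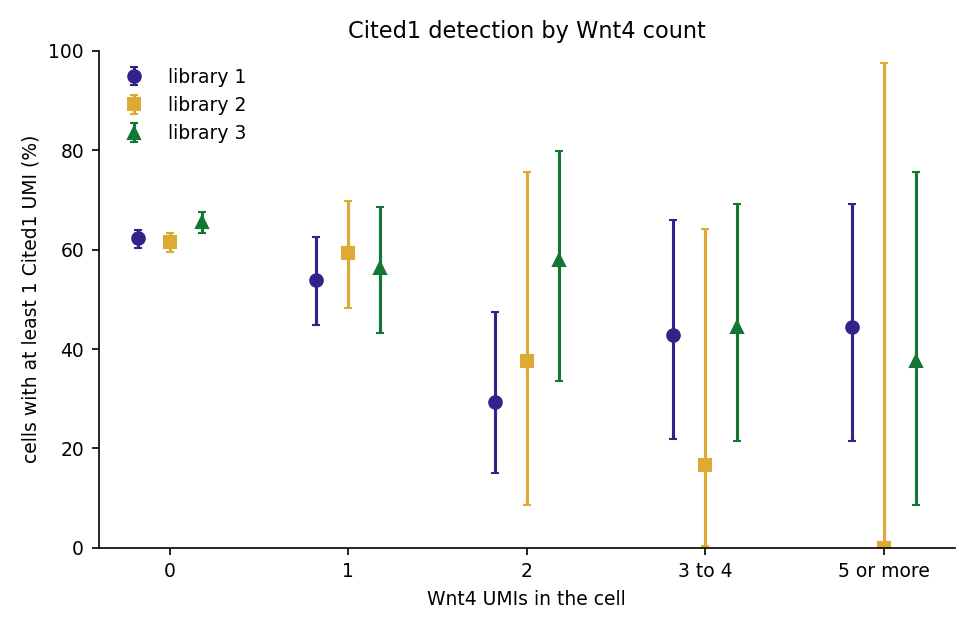
Share of cells with at least 1 Cited1 UMI (percent, vertical axis) by the number of Wnt4 UMIs in the cell (horizontal axis), one symbol per library, with exact 95% binomial intervals. The share lies between 61.5% and 65.5% without Wnt4 and between 53.8% and 59.3% at 1 Wnt4 UMI, and the wide bars at higher counts reflect few cells, with 1 cell in library 2 at 5 or more.

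Free RNA in the droplets can set a floor under such counts. In 73 cells with at least 3 of 6 immune markers, which should lack both genes, Cited1 was found in 6 (8.22%, exact 95% interval 3.08 to 17.0) and Wnt4 in 1 (1.37%, interval 0.0347 to 7.40). Their median depth was 9468 UMIs, against 19138.5 in double-positive cells, so the shares are not at equal depth. These counts do not separate free RNA from a progenitor in the same droplet. Wnt4 was found in 4.32% of Cited1-positive and 6.87% of Cited1-zero cells. Both shares lie within the interval of the immune cells, so a single Wnt4 UMI cannot be told apart from this background by its share alone. The other genes of the double-positive cells, which the rule did not use, carry the comparisons below.

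Double-positive cells were deeper than both single-positive classes. Their median was 20385, 14551 and 20676 UMIs per cell in libraries 1, 2 and 3. Wnt4-only cells had medians of 19675.5, 12730.5 and 18674, and Cited1-only cells 16562, 12306 and 16108. The ratio to Wnt4-only cells was 1.04, 1.14 and 1.11, and the ratio to Cited1-only cells 1.23, 1.18 and 1.28. The direction was the same in all 3 libraries, where an exact two-sided permutation test of 3 pairs cannot give a p below 0.25. A cell pair in 1 droplet would hold about the UMIs of both cells: 18 of 210 double-positive cells (8.57%) reached the sum of the medians of both single-positive classes, against 2.46% of Wnt4-only and 1.72% of Cited1-only cells. The rule itself asks for UMIs of both genes, which deeper cells meet more easily. Over all libraries the median depth was 14346, 16876 and 20500 UMIs in cells with 0, 1 and 2 Wnt4 UMIs. The part of this selection in the depth was not tested.

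The doublet score of the Scrublet method gave a further reading. The highest 6% of scores took in 17.5%, 9.09% and 8.62% of double-positive cells in libraries 1, 2 and 3. For Wnt4-only cells these shares were 2.83%, 0% and 5.88%, and for Cited1-only cells 6.10%, 6.07% and 5.62%. Without those cells the median depth in library 1 was below that of Wnt4-only cells, at 0.981 times, while it was 1.15 and 1.11 times that of Wnt4-only cells in libraries 2 and 3. It was 1.19, 1.21 and 1.28 times that of Cited1-only cells in libraries 1 to 3. Genes found per cell at 8000 UMIs were 2769, 3094 and 2872 in double-positive cells, 2771, 3080 and 2854 in Wnt4-only cells and 2764, 3088.5 and 2875 in Cited1-only cells. The part of doublets in the class was not tested further. A total of 22 barcode sequences occurred in more than 1 library, and 2 double-positive cells carried one.

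**Figure D2:**
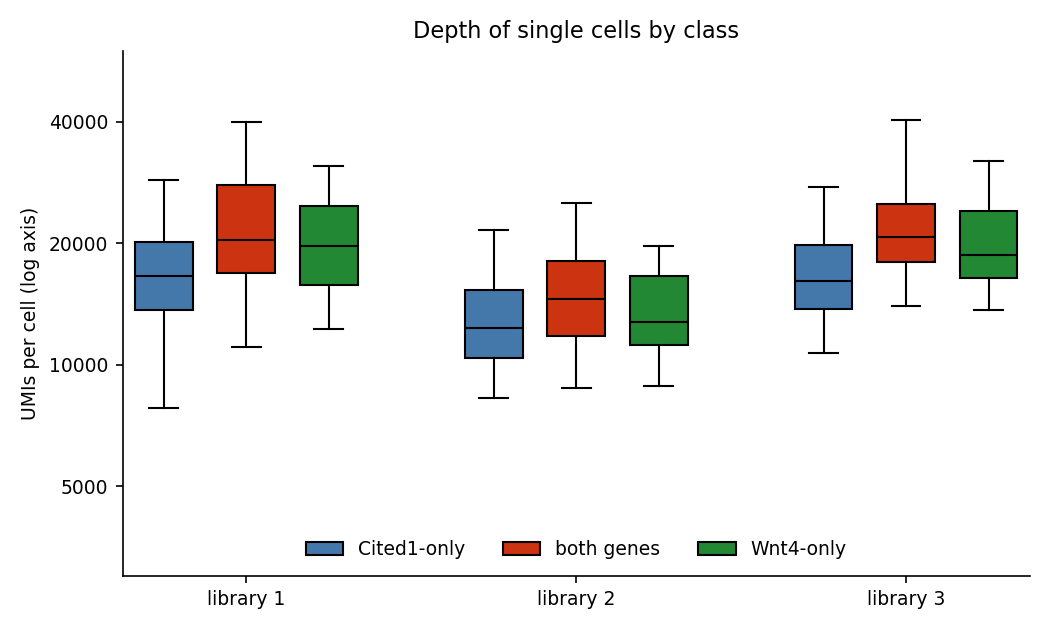
UMIs per cell (log axis) of Cited1-only, double-positive ("both genes") and Wnt4-only cells in libraries 1 to 3. Boxes span the quartiles with the median as a line, and whiskers the 5th to 95th percentile. The median of the double-positive cells is the highest of the 3 classes in each library.

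Most double-positive cells held Six2, found in 172 of 210 (81.9%), against 4.11% of the immune cells. In libraries 1, 2 and 3 it was found in 80.4%, 85.1% and 87.3% of Cited1-only cells. In Wnt4-only cells the shares were 74.5%, 63.0% and 74.5%. The defining immune gene Ptprc was at 0 in double-positive cells of all 3 libraries, and none held 2 or more immune markers. The ureteric bud genes Gata3, Ret and Wnt9b, the podocyte gene Nphs1, the endothelial genes Cdh5, Tie1 and Esam and the proximal tubule genes Slc34a1, Cubn and Hnf4a were at 0 as well. Other markers of these lists were present. In double-positive cells the ureteric markers summed to 47.6 to 62.6 CPM, the podocyte markers to 12.8 to 39.0 CPM, the endothelial markers to 14.4 to 22.4 CPM, the tubule markers to 6.07 to 8.27 CPM and the neural markers to 43.3 to 55.5 CPM. In Cited1-only cells these sums were 56.5 to 73.2, 24.4 to 36.9, 17.1 to 20.1, 5.99 to 6.76 and 57.1 to 68.9 CPM, and in Wnt4-only cells 40.9 to 51.0, 7.43 to 11.1, 21.2 to 25.5, 1.86 to 4.78 and 46.2 to 64.4 CPM. Their part in the results was not tested. Summed stromal markers ranged from 75.9 to 100 CPM in double-positive, 75.9 to 117 in Wnt4-only and 100 to 131 in Cited1-only cells. At least 2 stromal markers were found in 27 of 97, 13 of 55 and 11 of 58 double-positive cells. The counts were 19 of 106, 11 of 46 and 13 of 51 in Wnt4-only cells, and 393 of 1737, 389 of 1615 and 336 of 1299 in Cited1-only cells. At least 2 neural markers were found in 6, 3 and 5 double-positive cells, and 2 ureteric markers in 3, 1 and 2.

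To compare the classes, UMIs were summed per class and library, and edgeR's quasi-likelihood test was run on the 9 sums with the library as a block, Benjamini-Hochberg adjustment over all genes and a threshold of 0.05. Log2 changes are given with their standard error, and the libraries are the replicates (n = 3). The comparisons share sums and are not independent of each other. Lmcd1, Sct, Id2, Fgf9, Wfdc2, Id1, Spry1 and Dlk1 had been chosen on these same libraries as gained at commitment. Dcx, Efemp1, Colec12, Slc40a1, Ifitm1, Stc1, Lfng and Pgf had been chosen on them as lost. Wherever these genes are named or counted below, their direction is not independent evidence. The 6 genes of the rule are left out of every count.

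Against Cited1-only cells, 494 of 10006 genes passed (4.94%), 286 higher in double-positive cells (2.86%) and 208 lower (2.08%). Id1, Id2 and Id4, Sp5, Tmem100, Pax2 and Mycn were higher. The progenitor genes Crym and Rspo3, the cell cycle inhibitor Cdkn1c, the receptors Nrp1 and Robo2 and the early response gene Btg2 were lower. The count was 143 of 8871 genes without library 1 (78 higher, 65 lower) and 141 of 10134 without library 3 (79 higher, 62 lower). The list counts below for those fits stand beside these lower totals.

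Id2 encodes an inhibitor of basic helix-loop-helix factors and is a known target of BMP signals (chromosome 12, 25093799 to 25097140, mm10). It stood at 402, 406 and 635 CPM in double-positive cells of libraries 1, 2 and 3 and at 215, 229 and 233 CPM in Cited1-only cells. The classes did not overlap, and library 3 was the highest. The log2 change was 1.10 ± 0.07 (edgeR adjusted p = 7.9e-16). Its UMIs were spread over 189 of 210 cells, and no cell held more than 2.57% of them. Id2 and Id1 are among the genes that had been chosen on these same libraries. Id1, of the same family, stood at 107, 109 and 168 CPM against 65.9, 88.4 and 79.3, with no overlap, and was higher by 0.76 ± 0.09 (edgeR adjusted p = 1.8e-07). Id4 was rarer, at 6.87, 10.6 and 19.0 CPM against 2.12, 3.67 and 4.84, a log2 change of 1.80 ± 0.28 (edgeR adjusted p = 2.7e-05). Id3 had the smallest change of the 4, higher by 0.27 ± 0.06 with classes that overlapped. In library 2 it stood at 496 CPM against 505 in Cited1-only cells, and leaving out library 1 or library 3 gave edgeR adjusted p of 0.10 and 0.46.

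Of 20 BMP and TGF-beta genes tested, 7 were higher and 3 lower, with a list median of 0.02 against 0.00 over all genes. Besides the 4 Id genes, Smad7, Bambi and Bmper rose, each of which acts on or dampens BMP or TGF-beta signals. Id1 and Id2 of this list had been chosen on these same libraries. The ligand gene Bmp7 fell by 0.38 ± 0.08 on the log2 scale (edgeR adjusted p = 0.0021, and 0.22 without library 3). Tgfbi, a secreted protein named for its induction by TGF-beta, fell by 0.34 ± 0.05 (edgeR adjusted p = 2.1e-05). Without library 1 the list counted 3 higher and 2 lower, and without library 3 it counted 5 higher and 1 lower.

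Sp5, a zinc finger factor and direct target of Wnt and beta-catenin, had the largest increase of the genes named by the rule in the methods. It stood at 5.03, 14.2 and 14.4 CPM in double-positive cells and at 0.762, 1.02 and 0.399 CPM in Cited1-only cells. The classes did not overlap, and library 1 was the lowest of the double-positive sums. The log2 change was 3.81 ± 0.42 (edgeR adjusted p = 1.8e-08). The level rested on 42 UMIs in 23 cells, with at most 5 in 1 cell. It was found in 8.25%, 7.27% and 19.0% of double-positive cells, and in 1.04%, 1.24% and 0.462% of Cited1-only cells.

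Among 19 Wnt pathway genes, 4 were higher and 3 lower, with a median of 0.04. Lef1, a partner of beta-catenin, was higher by 2.15 ± 0.63 at 2.29, 2.36 and 3.80 CPM against 0.630, 0.790 and 0.444 (edgeR adjusted p = 0.033). The feedback inhibitor Nkd1 was higher by 0.67 ± 0.15 (edgeR adjusted p = 0.0038). Neither call held without library 3, at edgeR adjusted p of 0.42 and 0.13. Without library 1 Lef1 could not be tested, and Nkd1 had an edgeR adjusted p of 0.096. Tcf7l1, a factor of the same family as Lef1 that mostly represses Wnt targets, stood at 44.4, 47.2 and 34.2 CPM against 62.1, 71.2 and 67.6. It was lower in all 3 libraries without overlap, by a log2 change of -0.64 ± 0.11 (edgeR adjusted p = 0.00014). Shisa3, which restrains Wnt and FGF receptors, was lower as well, at -0.58 ± 0.09, and its adjusted p was 0.098 without library 1. Frzb, a secreted Wnt antagonist outside this list, was higher at 24.3, 8.27 and 29.6 CPM against 5.93, 7.02 and 6.34 (1.85 ± 0.22, edgeR adjusted p = 1.1e-07), and its adjusted p was 0.083 with members of 1 Wnt4 UMI alone. Without library 1 the list counted 1 higher and 1 lower, and without library 3 it counted 1 higher and 2 lower.

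Commitment genes were partly raised. Of 9 tested, Pax8, Tmem100, Ccnd1 and Bmper were higher and Lfng lower, with a median of 0.37. Tmem100, a transmembrane protein gene, stood at 16.5, 28.3 and 22.0 CPM against 6.49, 5.85 and 5.68, with no overlap (1.79 ± 0.21, edgeR adjusted p = 5.7e-08). It was found in 24 of 97, 11 of 55 and 17 of 58 double-positive cells, and in 139 of 1737, 101 of 1615 and 104 of 1299 Cited1-only cells. Pax8, the paired box factor of the forming nephron, stood at 43.5, 42.5 and 52.4 CPM against 28.5, 32.4 and 22.5 (0.76 ± 0.13, edgeR adjusted p = 0.00014). The classes did not overlap, and the adjusted p was 0.061 without library 3. The list counted 2 higher without library 1 and 3 higher without library 3. None of the 10 genes of epithelial junctions passed in edgeR, with a median of -0.17 and 1 gene at an unadjusted p below 0.05. DESeq2 gave an adjusted p for only 2 of them, and neither passed.

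Progenitor regulators went both ways, 4 higher and 4 lower of 18, with a median of -0.01. Crym, a thyroid hormone binding protein, stood at 181, 287 and 194 CPM in double-positive and 276, 377 and 318 CPM in Cited1-only cells. It was lower within each library, while the classes overlapped across libraries, with library 2 high in both (-0.57 ± 0.06, edgeR adjusted p = 9.0e-09). Rspo3, which enhances Wnt signals, stood at 80.1, 131 and 88.8 CPM against 160, 197 and 176, without overlap (-0.87 ± 0.08, edgeR adjusted p = 5.3e-10). Six2 itself, the gene that keeps progenitors in self-renewal, was lower by a small step of -0.29 ± 0.07, at 96.6, 144 and 106 CPM against 117, 174 and 137. Its edgeR adjusted p was 0.0084, and 0.13 and 0.16 without libraries 1 and 3. Pax2, which progenitors and forming nephrons both use, was higher at 191, 205 and 203 CPM against 133, 153 and 129 (0.55 ± 0.06, edgeR adjusted p = 3.1e-08), without overlap. The other genes that rose were the homeobox genes Hoxa11 and Hoxc11 and the transcriptional co-regulator Cited2, and Osr1 was the other that fell. Meox1 and Eya1 did not pass, at -0.27 ± 0.10 and -0.09 ± 0.06 (edgeR adjusted p = 0.15 and 0.49). The list counted 1 higher and 4 lower without library 1, and 1 higher and 3 lower without library 3.

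**Figure D3:**
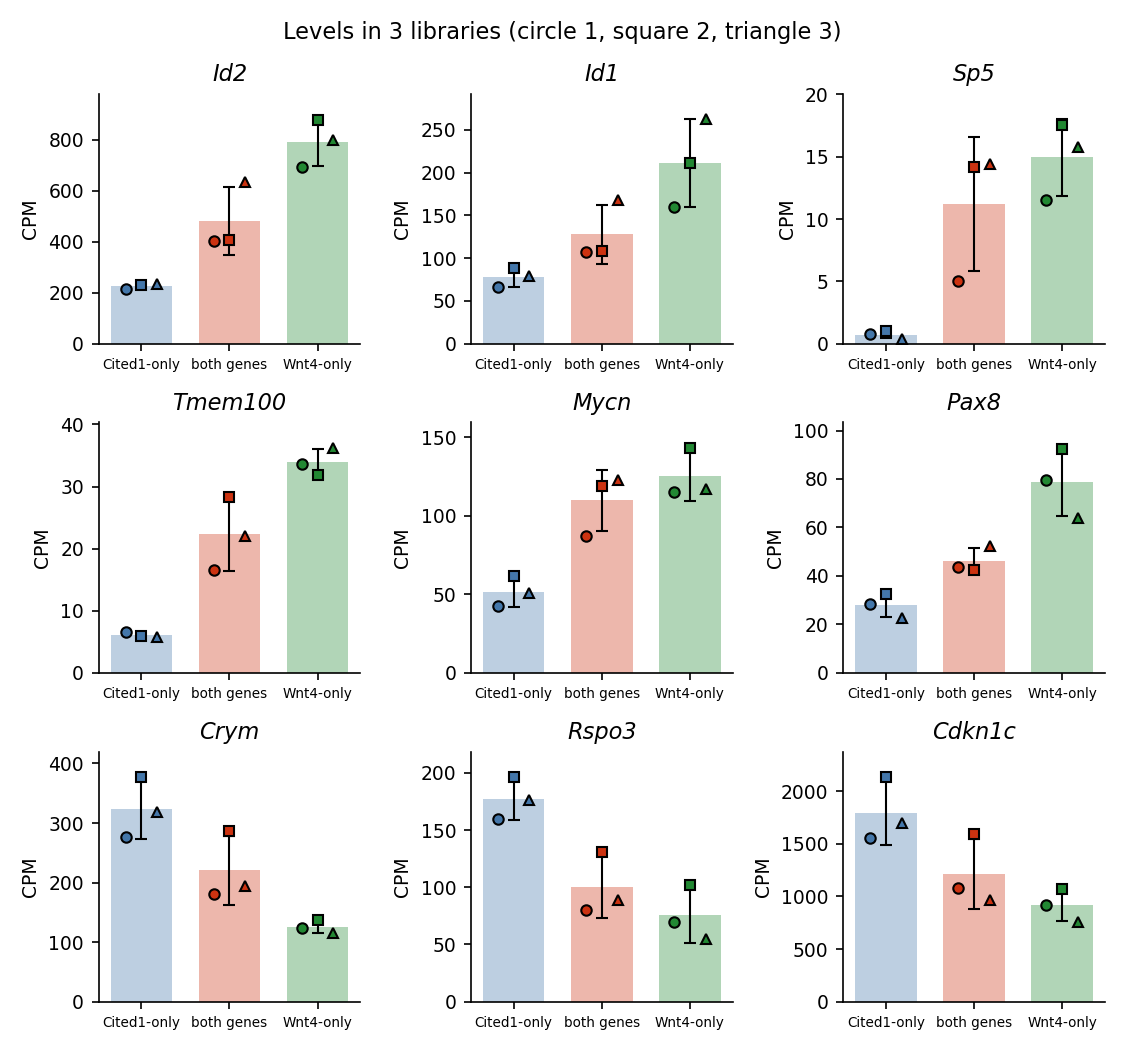
Levels of 9 genes in CPM (vertical axes) in Cited1-only, double-positive ("both genes") and Wnt4-only cells. Bars are means of 3 libraries, error bars the SD, and circles, squares and triangles libraries 1, 2 and 3. For Id2 the mean of double-positive cells is 481 CPM, against 226 in Cited1-only and 790 in Wnt4-only cells, and for Crym it is 220 against 324 and 126.

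Mycn and 17 of 52 genes of G2 and M phase were higher. Mycn, a driver of progenitor growth, stood at 87.4, 119 and 123 CPM against 42.4, 61.7 and 50.5, with no overlap (1.11 ± 0.09, edgeR adjusted p = 2.4e-12). Cdkn1c, an imprinted inhibitor of cyclin-dependent kinases, stood at 1082, 1588 and 961 CPM against 1550, 2134 and 1698. It was lower in each library (-0.58 ± 0.05, edgeR adjusted p = 5.0e-12), with overlap across libraries. Of 52 genes of G2 and M phase, 17 were higher and none lower, with a median of 0.28. Birc5, which is needed for chromosome segregation and cell survival, rose by 0.43 ± 0.07 (edgeR adjusted p = 4.1e-05). The count of 17 was 8 without library 1, 2 without library 3, 8 in cells of 10000 to 25000 UMIs, 6 with members of 1 Wnt4 UMI, 7 with DESeq2 and 29 without the highest doublet scores. Over all genes the same fits gave, in this order, 78, 79, 132, 85, 140 and 334 higher genes, against 286 in the main fit. Of 44 S phase genes, 4 were higher and none lower. The count was 1 without library 1 and with members of 1 Wnt4 UMI, and 0 in cells of 10000 to 25000 UMIs. Without library 3 none passed in edgeR, with 5 at an unadjusted p below 0.05. The D cyclins Ccnd1 and Ccnd2 rose by 0.37 ± 0.07 and 0.27 ± 0.05, and their edgeR adjusted p was 0.35 and 0.17 without library 1.

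The receptors Nrp1 and Robo2 and 8 of 19 immediate early genes were lower. Nrp1, a receptor for semaphorins and VEGF, fell by 0.51 ± 0.07 on the log2 scale (edgeR adjusted p = 5.5e-06), and Robo2, a receptor for Slit ligands, fell by 0.34 ± 0.05 (edgeR adjusted p = 9.5e-06). Among 19 immediate early and stress genes, 8 were lower and 1, Hsp90aa1, was higher, with a median of -0.17. Btg2, an early response gene that restrains division, stood at 135, 318 and 135 CPM against 188, 453 and 248 (-0.59 ± 0.07, edgeR adjusted p = 5.8e-08). Junb and Ier2 fell by 0.43 ± 0.07 and 0.34 ± 0.04. These genes also respond to cell dissociation, and their part in the difference was not tested. The lower count was 5 without library 1 and 3 without library 3. Of 14 genes of mesenchyme and migration, Snai1 and Slit2 were higher and the 2 receptors lower, with a median of 0.04, and without library 1 or library 3 the receptors alone passed. Of 17 FGF and ERK genes, 2 were higher and 3 lower, and without library 3 none passed in edgeR, with 4 at an unadjusted p below 0.05. Fgf9, a ligand that keeps progenitors, was higher by 1.15 ± 0.21 (edgeR adjusted p = 0.00028, and 0.13 without library 3). Of 9 Notch genes, Lfng alone passed and was lower by 0.70 ± 0.21, with an adjusted p of 0.56 without library 3. Wfdc2, a secreted protease inhibitor of nephron epithelium, was the 1 of 4 further early nephron genes to pass, at 52.6, 27.2 and 67.6 CPM against 27.4, 16.5 and 24.7 (1.10 ± 0.13, edgeR adjusted p = 1.3e-07).

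A pair of lists of 8 genes each had been chosen on these same libraries as gained or lost at commitment, so their direction is not independent evidence. Of the gained genes, 7 were higher and Dlk1 did not pass (0.85 ± 0.27, edgeR adjusted p = 0.061). All 8 lost genes were lower, among them Pgf, a growth factor for vessels, and Stc1, a secreted glycoprotein (-0.83 ± 0.10 and -0.97 ± 0.12). Without library 1 or library 3 the counts were 6 of the gained and 4 of the lost genes. The summed level of the gained genes was 673, 661 and 1009 CPM in double-positive cells, 367, 403 and 400 CPM in Cited1-only cells, and 1092, 1306 and 1331 CPM in Wnt4-only cells. The double-positive sums lay between the other classes in each library.

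**Figure D4:**
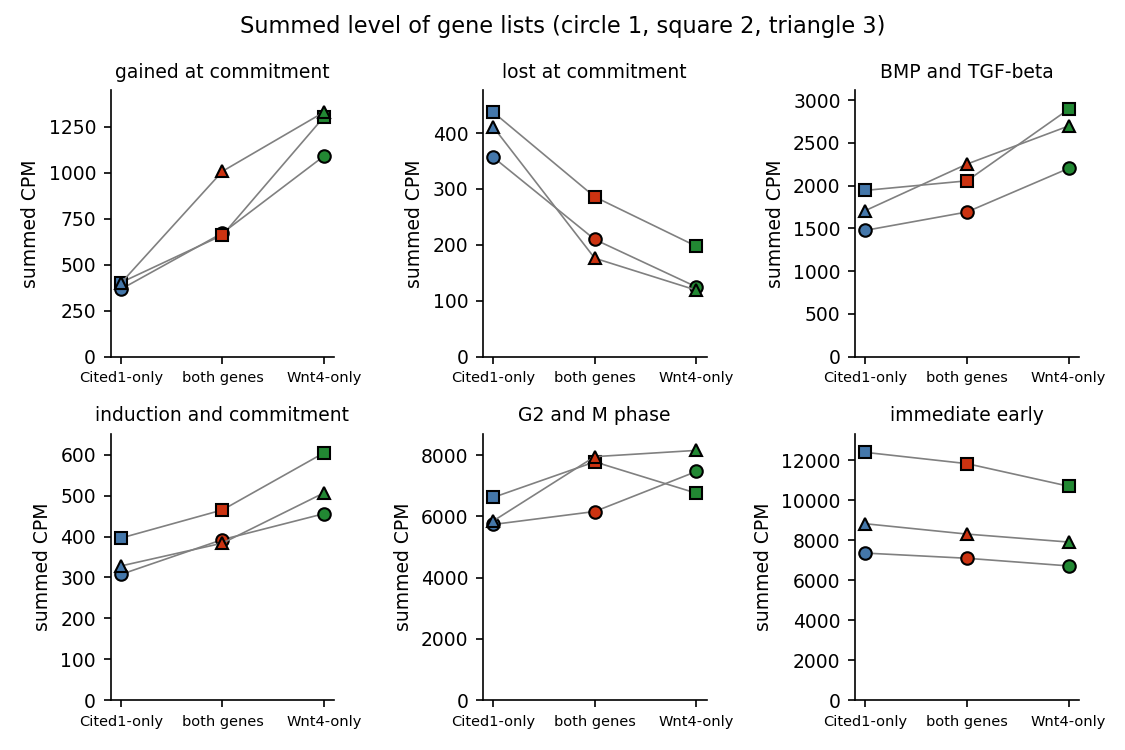
Summed level of 6 gene lists (CPM, vertical axes) in the 3 classes, 1 line per library with circles, squares and triangles for libraries 1, 2 and 3. The gained list lies at 661 to 1009 CPM in double-positive ("both genes") cells, above 367 to 403 in Cited1-only and below 1092 to 1331 in Wnt4-only cells, while G2 and M genes have no such order in library 2.

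The 10 largest increases that passed and had the same direction in 3 of 3 libraries were those of Sp5, Eva1a, Frzb, Tenm4, Id4, Tmem100, Spag11b, Col9a1, Lmcd1 and Gfra2. Eva1a, a membrane protein linked to autophagy, was higher by 2.03 ± 0.31. Lmcd1, a LIM domain protein, stood at 22.0, 23.6 and 23.5 CPM against 8.71, 10.2 and 8.34 (1.38 ± 0.18, edgeR adjusted p = 1.1e-06). Gfra2, a co-receptor for neurturin, was higher by 1.29 ± 0.22. The 10 largest decreases were those of Epn3, Cpa1, C2cd4b, Tekt5, Il33, Cdc42ep3, Tnnt2, Shd, Fam124a and Pygm. Epn3, an endocytic adaptor, stood at 1.83, 4.72 and 1.52 CPM against 8.95, 14.1 and 11.3 (-2.20 ± 0.35, edgeR adjusted p = 3.0e-05), on 10 UMIs in 10 cells. Cpa1, a carboxypeptidase, was at -2.09 ± 0.40, and Cdc42ep3, an effector of the GTPase Cdc42, at -1.31 ± 0.20. Of these 20 genes, 12 kept an adjusted p below 0.05 without each library in turn. The call was lost or could not be tested for Tenm4, Spag11b, C2cd4b, Il33, Shd, Fam124a and Pygm without library 1 (adjusted p from 0.054 to 0.20), for Spag11b, C2cd4b, Tnnt2, Shd and Fam124a without library 3 (0.068 to 0.39), and for C2cd4b without library 2.

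**Figure D5:**
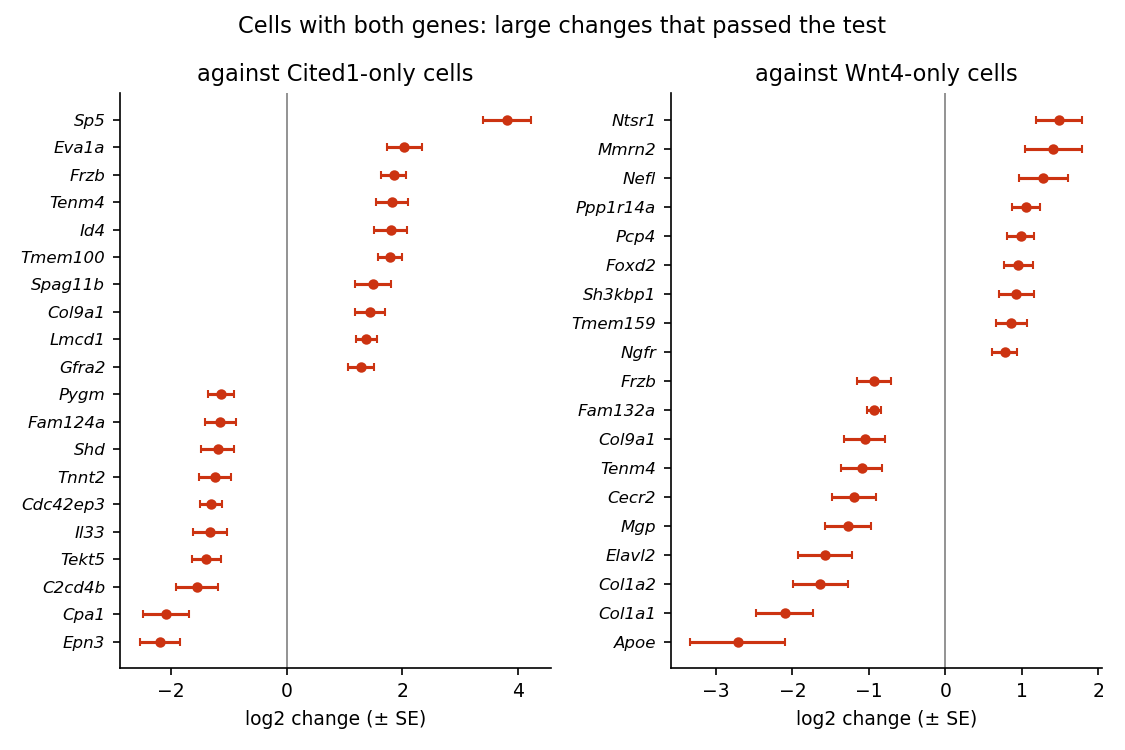
Log2 change ± SE (horizontal axes) of genes among the 10 largest increases and 10 largest decreases that passed the test in double-positive cells, 20 against Cited1-only cells (left) and 19 against Wnt4-only cells (right). Sp5 stands apart on the left at 3.81, and Apoe on the right at -2.72 has the widest error.

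Against Wnt4-only cells fewer genes passed: 102 of 10006 (1.02%), 57 higher (0.57%) and 45 lower (0.45%). At an unadjusted p below 0.05 there were 849 genes. Id genes, D cyclins and Pax8 were lower in double-positive cells, and Crym, Osr1, Meox1, Cdkn1c, Nrp1 and Robo2 were higher. The count was 15 without library 1, which holds 97 of the 210 double-positive and 106 of the 203 Wnt4-only cells, and 14 of those were among the 102. The difference between this count and that against Cited1-only cells was not tested, and the Wnt4-only sums hold fewer UMIs. Its direction turned with members of 1 Wnt4 UMI (185 against Wnt4-only and 145 against Cited1-only cells). It also turned with 2 UMIs of each rule gene (69 and 60), a fit with only 10, 1 and 11 double-positive cells in libraries 1, 2 and 3. With sums thinned to equal totals the counts were 50 and 84.

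Id2 stood at 402, 406 and 635 CPM in double-positive cells and at 693, 877 and 799 CPM in Wnt4-only cells. The classes did not overlap, and the log2 change was -0.69 ± 0.07 (edgeR adjusted p = 1.9e-08). Id3 stood at 467, 496 and 662 CPM against 693, 871 and 873, again without overlap (-0.56 ± 0.06, edgeR adjusted p = 6.8e-08). Both calls held without each library in turn. Id1 was lower by a log2 change of -0.67 ± 0.11 (edgeR adjusted p = 7.9e-05, and 0.056 without library 1). Of the 20 BMP and TGF-beta genes, 4 were lower, these and the BMP regulator Bmper, and Tgfbi was higher at 0.46 ± 0.07, with a list median of -0.11 against 0.00 over all genes.

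Fam132a, which encodes a secreted protein related to C1q and TNF, stood at 131, 117 and 140 CPM in double-positive and 217, 333 and 255 CPM in Wnt4-only cells. It had no overlap between classes (-0.94 ± 0.09, edgeR adjusted p = 4.4e-09), and it was the 1 gene of the 19 given here by the rule whose call held without each library. Ccnd2 stood at 426, 417 and 441 CPM against 545, 685 and 528 (-0.41 ± 0.06, edgeR adjusted p = 1.8e-05), and this call held as well. Of 9 commitment genes, Pax8, Ccnd1 and Bmper were lower and none was higher, with a median of -0.62. Pax8 had a log2 change of -0.74 ± 0.15 and Ccnd1 of -0.37 ± 0.09. None of the 3 passed without library 1, at edgeR adjusted p of 0.58, 0.056 and 0.45. Without library 2 the values were 0.19 for Ccnd1 and 0.25 for Bmper, and without library 3 they were 0.22 and 0.065.

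Crym ran the other way, at 181, 287 and 194 CPM in double-positive cells against 124, 137 and 116 CPM in Wnt4-only cells, without overlap (0.73 ± 0.09, edgeR adjusted p = 7.6e-07). It was found in 90.7%, 92.7% and 86.2% of double-positive cells and in 71.7%, 69.6% and 66.7% of Wnt4-only cells. Cdkn1c was at 1082, 1588 and 961 CPM against 917, 1065 and 761 (0.37 ± 0.06, edgeR adjusted p = 4.8e-05). Both calls held without each library. Of 18 progenitor regulators, Crym, Meox1 and Osr1 were higher and none lower, with a median of 0.15. Meox1, a homeobox gene of uncommitted progenitors, stood at 77.8, 107 and 39.5 CPM against 38.2, 57.3 and 41.8, so that library 3 showed no excess. Its change was 0.76 ± 0.16 (edgeR adjusted p = 0.0071, and 0.79 without library 1). Osr1, a zinc finger gene of early kidney mesenchyme, had a change of 0.51 ± 0.09, and 0.35 as adjusted p without library 1. Six2 did not pass, at 96.6, 144 and 106 CPM against 87.9, 118 and 102 (0.15 ± 0.10, edgeR adjusted p = 0.74).

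Nrp1 stood at 130, 205 and 123 CPM in double-positive cells against 65.8, 116 and 98.5 CPM (0.76 ± 0.11, edgeR adjusted p = 2.9e-05), and Robo2 was higher by 0.40 ± 0.07. Without library 1 their adjusted p was 0.30 and 0.082. Of 19 immediate early genes, 5 were higher and 1 lower, among the higher Egr1 at 0.32 ± 0.06 and Ier2 at 0.25 ± 0.05. No gene of this list passed in edgeR without library 1, with 7 at an unadjusted p below 0.05. None of the 44 S phase genes and none of the 52 genes of G2 and M phase passed in edgeR or DESeq2, with medians of -0.02 and -0.11 and with 3 and 9 genes at an unadjusted edgeR p below 0.05. Notch genes and epithelial junction genes also had no call in edgeR, of 9 and 10 tested, with 4 and 2 at an unadjusted p below 0.05. Of the 19 Wnt pathway genes, Shisa3 was higher and the secreted Wnt modulator Sfrp2 lower. Of the 8 lost genes Pgf was higher, and of the 8 gained genes Id2, Id1 and Spry1, a feedback inhibitor of FGF signals, were lower.

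Among the 10 largest increases against Wnt4-only cells were those of Ntsr1, Mmrn2, Nefl, Ppp1r14a, Pcp4, Foxd2, Sh3kbp1, Tmem159 and Ngfr. Ntsr1, the neurotensin receptor, stood at 18.8, 21.3 and 18.2 CPM against 4.60, 6.37 and 11.1 (1.48 ± 0.30, edgeR adjusted p = 0.0036). Ngfr, a neurotrophin receptor, stood at 60.4, 75.6 and 41.0 CPM against 30.8, 55.7 and 25.1, and Foxd2, a forkhead factor, at 35.2, 48.4 and 36.4 CPM against 18.4, 27.1 and 17.7. The 10 largest decreases were those of Apoe, Col1a1, Col1a2, Elavl2, Mgp, Cecr2, Tenm4, Col9a1, Fam132a and Frzb. The calls other than that of Fam132a did not hold without 1 or more libraries. The call was lost or could not be tested for 18 of these 19 genes without library 1, 6 without library 2 and 7 without library 3, and the highest adjusted p over these fits lay between 0.071 for Col1a1 and 0.83 for Mmrn2.

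Single cells weighed on some of these decreases. Apoe, a lipid carrier gene abundant in macrophages, had 189 of its 264 UMIs in Wnt4-only cells in 1 cell of library 2 that also held immune markers. Without cells with immune markers its log2 change moved from -2.72 to -0.80 (edgeR adjusted p = 0.19). Col1a1, a collagen gene of stroma, had 35.0% of its 60 Wnt4-only UMIs in 1 cell. It stood at 3.66, 2.36 and 4.55 CPM in double-positive and 12.0, 14.3 and 23.2 CPM in Wnt4-only cells.

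For scale, the single-positive classes differed from each other in 1264 of 10006 genes (12.6%), 673 higher in Wnt4-only cells (6.73%) and 591 lower (5.91%), by the same edgeR test. Side by side, Crym was lower than in Cited1-only cells and higher than in Wnt4-only cells, and both calls held without each library. Cdkn1c had the same order. Id2 was higher than in Cited1-only and lower than in Wnt4-only cells, and both of its calls held too. This order is one of summed levels, and single cells spread widely. In library 1 the quartiles of Id2 over single double-positive cells were 98.9, 180 and 535 CPM. The median was 601 CPM in Wnt4-only and 110 CPM in Cited1-only cells. In that library 66.0% of double-positive cells stood above the Cited1-only median and 19.6% above the Wnt4-only median. In library 3 these shares were 79.3% and 32.8%, with a median of 485 CPM in double-positive cells. The upper quartile of double-positive cells lay below the Wnt4-only median in libraries 1 and 2 (535 against 601 and 472 against 662 CPM) and above it in library 3 (978 against 745 CPM). Counting error at this depth adds to the spread.

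The double-positive cells were also split by the counts of the 2 genes, which are part of the rule, and other genes were compared between the subsets. The 53 cells with 2 or more Wnt4 UMIs (27, 4 and 22 in libraries 1, 2 and 3) were set against 157 with 1. Of 7017 genes, 19 passed (0.271%), 7 higher (0.0998%) and 12 lower (0.171%). Id2 stood at 723, 580 and 900 CPM in cells with more Wnt4 against 256, 387 and 452 CPM (1.13 ± 0.11, edgeR adjusted p = 1.2e-06), without overlap. Its level was 693, 877 and 799 CPM in Wnt4-only and 215, 229 and 233 CPM in Cited1-only cells. Fam132a stood at 213, 266 and 226 CPM against 94.0, 101 and 81.0 (1.31 ± 0.14, edgeR adjusted p = 3.5e-06), also without overlap. Id1 and Id3 were higher by 0.83 ± 0.15 and 0.57 ± 0.09, and Nrp1 was lower at -0.79 ± 0.16. The calls of Id1, Id3 and Nrp1 were lost without library 1 (edgeR adjusted p = 0.9999, 0.34 and 0.9999). Without library 3 no gene passed in edgeR (258 at an unadjusted p below 0.05), with adjusted p of 0.32 for Id2 and 0.28 for Fam132a, and the fit without the library block had no call either. The cells with 2 or more Wnt4 UMIs were deeper, with a median of 22306 UMIs against 18172, and the part of depth in the differences was not tested.

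The 104 cells with 3 or more Cited1 UMIs were set against 106 with 1 or 2. Their median depth was 27754, 14216 and 21885 UMIs in libraries 1, 2 and 3, against 18884, 15735 and 19794, so library 1 differed most. Of the cells with more Cited1, 18 were in the highest 6% of doublet scores (13 of 42 in library 1), against 9 of the others (4 of 55 in library 1), and the part of depth and doublets in the differences was not tested. Of 6837 genes, 50 passed (0.731%), 29 higher (0.424%) and 21 lower (0.307%). Id2 stood at 232, 333 and 500 CPM in cells with more Cited1 and at 580, 504 and 791 CPM in cells with less (-0.89 ± 0.09, edgeR adjusted p = 2.8e-07), and Id3 was lower at -0.57 ± 0.07. Mycn stood at 63.7, 72.4 and 101 CPM against 112, 182 and 149 (-0.83 ± 0.14, edgeR adjusted p = 0.0012), and Fam132a at 92.5, 76.5 and 102 CPM against 172, 171 and 185. Id2, Id3, Mycn and Fam132a, picked from the genes that passed, did not overlap between the subsets. For Id2 the margin was narrow, at 500 CPM in library 3 against 504 CPM in library 2 of the other subset. The share of all genes without overlap is not given here. The calls of these genes held without each library in turn. Cdkn1c was higher in cells with more Cited1 at 0.46 ± 0.06, and Tpm2, a tropomyosin gene, at 0.55 ± 0.08, and both held as well. Crym and Rspo3 were higher at 0.55 ± 0.11 and 0.84 ± 0.16, with edgeR adjusted p of 0.13 without library 3 and 0.28 without library 1. The count was 23 without library 1, 112 without library 2 and 18 without library 3.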

How the data were processed

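The authors deposited counts: each value is the whole number of UMIs of 1 of 27998 genes in 1 of 7924 barcodes. The submitters' processing notes name Cell Ranger 1.3.1 and the build mm10. A text table of the series was not used here. The members and gene lists were chosen with earlier results of these data known. The filters on genes and mitochondrial UMIs kept 7898 cells, with 50894264, 35268524 and 35816105 UMIs in libraries 1, 2 and 3. UMIs were summed per class and library (628044 to 30182123 per sum) and fitted with edgeR 4.0.16 (TMM, filterByExpr, library as a block because each tube holds all 3 classes). Standard errors are the absolute log2 change over the root of F. P-values measure how far the class differences vary over the 3 tubes, since the block takes out the level of each tube. That spread may be technical. DESeq2 1.42.0 was an alternative.

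No doublet was removed from the cells described. Scores came from the Scrublet method in scanpy 1.11.5, and a fit without the highest 6% is an alternative. The genes listed as largest increases and decreases are the 10 in each direction with adjusted p below 0.05, the same direction in 3 of 3 libraries and a mean of at least 10 CPM in 1 class, without the rule's genes, ribosomal, mitochondrial and clone-named genes. Of the increases against Wnt4-only cells, 1 is not reported here. Others come from the lists. The splits by Wnt4 and Cited1 UMIs, and the fits without shared barcodes, without immune cells and with members of 1 Wnt4 UMI, were added after seeing the data. CPM are not scaled by gene length, so levels are compared within a gene. Gene names are the file's own, and positions are from GENCODE on mm10, which held 27645 of the 27998 gene IDs. A run of the fit on simulated sums had no library effect and left part of the genes meant to change unchanged. It therefore cannot speak to the calls given here.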

Additional observations from a re-analysis of the deposited data

How the results depend on the processing

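Calls against Cited1-only cells (494) and against Wnt4-only cells (102) depended most on the library block. Without the replicate block 10 and 0 genes passed in edgeR (565 of the latter comparison at an unadjusted p below 0.05), 337 of 1264 passed between Wnt4-only and Cited1-only cells, and none passed in the splits of the double-positive cells by Wnt4 and by Cited1 (264 and 227 unadjusted). Ribosomal genes took 24.5%, 12.8% and 20.3% of UMIs in the median double-positive cell of libraries 1, 2 and 3. DESeq2 called 213, 56, 754, 4 (split by Wnt4) and 6 (split by Cited1). Cells of 10000 to 25000 UMIs gave 250, 44 and 730, and sums thinned to 628044 UMIs gave 84, 50 and 385. With 2 UMIs of each rule gene 22 double-positive cells were left, 10, 1 and 11 in libraries 1, 2 and 3. In that fit 60 genes passed against Cited1-only cells and 69 against Wnt4-only cells. Without the limit on early nephron genes 180 passed against Wnt4-only cells, and with barcodes of at most 9 A and T bases 58 did. Members of 1 Wnt4 UMI gave 145 against Cited1-only and 185 against Wnt4-only cells. Without a filter on low counts the split by Wnt4 gave 48 calls, and calls against Cited1-only cells were 207 higher and 285 lower. Leaving out 1 library gave 141 to 615 calls against Cited1-only cells, 15 to 107 against Wnt4-only cells, 446 to 1363 between the single-positive classes, 0 to 36 in the split by Wnt4 and 18 to 112 in the split by Cited1. The cause was not tested. The thinned share of double-positive cells was 1.12%. Over 1762 refits of 131 gene results, 1313 kept direction and side of the threshold, 439 lost the call and 8 gained it. The sign turned for Six2 (0.131) and Eya1 (0.0702) against Cited1-only cells with 2 UMIs of each rule gene, neither past the threshold.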

Other observations

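Mest and Nnat, a pair of imprinted genes chosen after their values were seen, differed between subsets of the double-positive cells. Mest, a paternally expressed gene, stood at 885, 1329 and 994 CPM in cells with 2 or more Wnt4 UMIs and at 1449, 2138 and 1516 CPM in cells with 1 (-0.68 ± 0.07, edgeR adjusted p = 1.2e-06). The subsets did not overlap, and the adjusted p was 0.13 without library 3. Nnat, also paternally expressed, stood at 300, 229 and 311 CPM against 434, 615 and 436 CPM (-0.64 ± 0.12, edgeR adjusted p = 0.0055), without overlap, and it did not pass without library 3 or without library 1 (adjusted p = 0.11 in the latter fit). By Cited1, Mest and Nnat were higher in cells with 3 or more UMIs, at 0.35 ± 0.06 and 0.44 ± 0.09, with edgeR adjusted p of 0.11 and 0.35 without library 3. Hspa1a, a heat shock gene, stood at 350 CPM in library 2 cells with 2 or more Wnt4 UMIs, of which there were 4, against 7.31 and 20.4 CPM in libraries 1 and 3, and 29 of its 89 UMIs in double-positive cells came from 1 cell.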
